A study of Homo sapiens with 9 samples.

Results

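The 46 genes described here are type I interferon receptors, the kinases attached to them, STAT and IRF transcription factors, and genes that interferon induces. They were chosen by symbol and not by a measured value, though earlier results of these data were known when they were chosen. Each of the 46 symbols matched 1 row of the deposited table, which lists 56541 genes. Expression was measured in MOLM-13, a human acute myeloid leukaemia cell line that the labels trace to peripheral blood, in 9 libraries in 3 groups of 3. Control-hairpin cells (shCONTROL) and cells carrying a BCLAF1 hairpin (shBCLAF1) were each profiled by RNA-seq. BCLAF1 is a nuclear protein with roles in transcription and RNA processing. The RIP libraries (RNA immunoprecipitation followed by sequencing) hold RNA recovered with BCLAF1 from shCONTROL cells. Cells of every group, controls included, had been grown for 4 days with 200 ng/µL doxycycline, the only agent that the labels name as a treatment. The dose is printed in the unit that the labels give, which nothing else in the sources used here checks. RIP samples were made from larger numbers of cells than RNA-seq samples. The number of hairpins and of clones is not given in the sources used here, nor is a mock precipitation, so RIP values are relative to the RNA-seq of shCONTROL cells. Nothing states that the replicates came from separate cultures. The p-values below therefore measure the spread between these libraries, which may be technical.

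Type I interferons bind a receptor made of IFNAR1 and IFNAR2. The kinases JAK1 and TYK2, which sit on its inner side, then activate STAT proteins, and STAT2 joins IRF9 in a complex that binds the interferon-stimulated response element upstream of its target genes. The induced genes include sensors of foreign nucleic acid, proteins that block virus entry, copying or release, and feedback inhibitors such as USP18. Myeloid cells, from which this leukaemia derives, carry the pathway.

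The letters of the promoters did not enter the choice of the genes. Genes that interferon induces were chosen, however, and the response element lies upstream of such targets. The share of promoters that hold it is therefore not independent of the choice. Some of its copies are shown so that the letters behind the word can be seen. Promoters (250 bases before to 50 after a start site of the gene) came from a table of RefSeq promoters on GRCh38.p14. In it 36 of the 46 genes were matched. For DDX60, IFI16, ISG20, IFI27 and XAF1 the start site used lies inside the gene. It is not the outer end from which gene lengths were taken. Genes without an entry in that table were IFNAR2, IRF7, USP18, DHX58, OAS2, OASL, IFIT2, IFITM2, MX2 and TRIM22. The motif searched was GAAANNGAAA on the strand of the gene and TTTCNNTTTC on the opposite strand, and matches were allowed to overlap. It occurred in 19 of the 36 promoters (52.8%), and in 996 of all 27305 promoters in the table (3.65%). A match is a description of the letters and not a measured binding site. Each of the 9 genes printed passed the test in at least 1 of the comparisons below. The capitals mark the matches, with 10 bases on either side, 5′ to 3′ on the strand of the gene.
ISG15, chr1:1013374-1013409, plus strand: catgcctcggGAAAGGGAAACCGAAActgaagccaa
BST2, chr19:17405735-17405770, minus strand: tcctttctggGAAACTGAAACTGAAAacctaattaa
IFIT3, chr10:89327831-89327894, plus strand: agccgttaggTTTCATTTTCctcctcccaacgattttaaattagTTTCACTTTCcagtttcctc
HERC5, chr4:88456984-88457064, plus strand: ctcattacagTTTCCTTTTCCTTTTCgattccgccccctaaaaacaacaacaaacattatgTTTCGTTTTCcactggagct
IFITM3, chr11:320876-320922, minus strand: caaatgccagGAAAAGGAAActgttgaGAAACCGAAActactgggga
IFI6, chr1:27672266-27672358, minus strand: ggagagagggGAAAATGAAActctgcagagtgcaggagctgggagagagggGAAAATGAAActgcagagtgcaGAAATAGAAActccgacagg
PARP14, chr3:122680800-122680829, plus strand: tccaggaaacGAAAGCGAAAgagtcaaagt
DTX3L, chr3:122564322-122564351, plus strand: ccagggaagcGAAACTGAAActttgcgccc
IFI44, chr1:78649761-78649790, plus strand: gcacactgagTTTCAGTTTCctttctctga

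**Figure D1:**
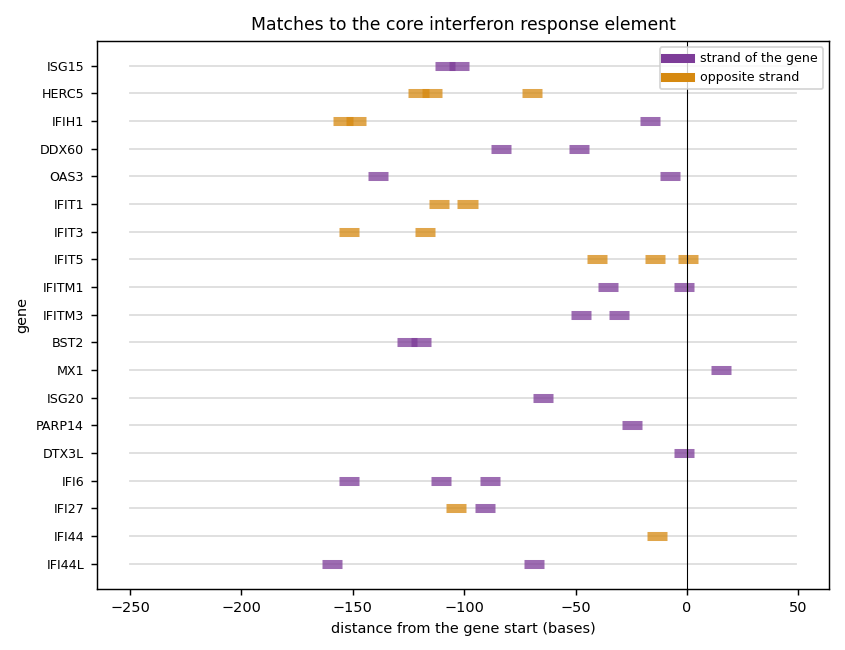
Positions of the motif matches in the 19 promoters that held one. The horizontal axis is the distance in bases from the start site on which the promoter was set. Each row is a gene, and colour gives the strand of the match. Most matches lay upstream of the start, and HERC5, IFIT5, IFIH1 and IFI6 had 3 each.

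The libraries held 25819144 to 36635268 estimated counts. Levels are given in CPM, which are counts relative to the scaled size of the library, and a floor of 3 counts was worth 0.0789 to 0.118 CPM. Of the 46 genes, 37 were above 0 in all 9 libraries, and OAS3 and IFI44L were listed at 0 in all of them. BCLAF1 itself, which checks the labels, stood at 325, 328 and 312 CPM in shCONTROL and at 115, 125 and 99.9 CPM in shBCLAF1, a log2 fold change of -1.50 (SE 0.08, edgeR adjusted p = 2.06e-04). In RIP it stood at 1143, 1059 and 1034 CPM. All 9 markers of the labelled myeloid leukaemia type were above the floor in every group, and summed to 1950 to 2060 CPM in shCONTROL, 3870 to 4240 CPM in shBCLAF1 and 1660 to 1910 CPM in RIP. The differences between these sums rested mainly on the lysozyme gene LYZ, at 671 to 785, 2430 to 2820 and 34.3 to 60.4 CPM. LYZ was not the only marker that changed after knock-down. Of the 9 markers, 5 rose (LYZ, CD33, SPI1, CD68 and ANPEP) and 1 fell (FLT3). The log2 fold changes of CD68 and ANPEP were 0.97 and 1.06. The other 8 markers summed to 1280 to 1330 CPM in shCONTROL, 1330 to 1440 CPM in shBCLAF1 and 1620 to 1850 CPM in RIP. Of the T cell, B cell, erythroid, epithelial and fibroblast markers, the erythroid, epithelial and fibroblast ones were at 0 throughout, as were CD3E, CD2 and MS4A1. The T cell markers summed to 7.71 to 11.9 CPM and the B cell markers to 1.35 to 3.32 CPM over the 9 libraries. Myeloid maturation markers differed between the groups: of 7 tested, 5 rose and 0 fell after knock-down, and the summed level of the 10 markers was 49.9 to 54.4 CPM in shCONTROL, 156 to 175 CPM in shBCLAF1 and 33.9 to 44.5 CPM in RIP. Their part in the results below was not tested.

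Libraries within a group were not alike for these genes. Of the 37 genes above 0 throughout, shCONTROL replicate 2 was the highest of its group in 25 (67.6%) and shCONTROL replicate 3 the lowest in 25 (67.6%). Over all 14106 genes tested and above 0 the shares were 35.1% and 32.8%. RIP replicate 2 was the highest in 25 (67.6%, against 33.7% of all genes) and RIP replicate 3 the lowest in 22 (59.5%, against 34.1%). For 17 of the 37 (45.9%), replicate 2 was the highest in shCONTROL and in RIP alike, against 12.8% of all genes. These shares are close to what the separate shares above would give for unrelated groups. A link between the replicates was not tested for these genes. In shBCLAF1 replicates 1, 2 and 3 were the highest in 15, 12 and 10 of the genes. The plot of the 37 genes by library shows this spread beside the differences between groups.

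**Figure D2:**
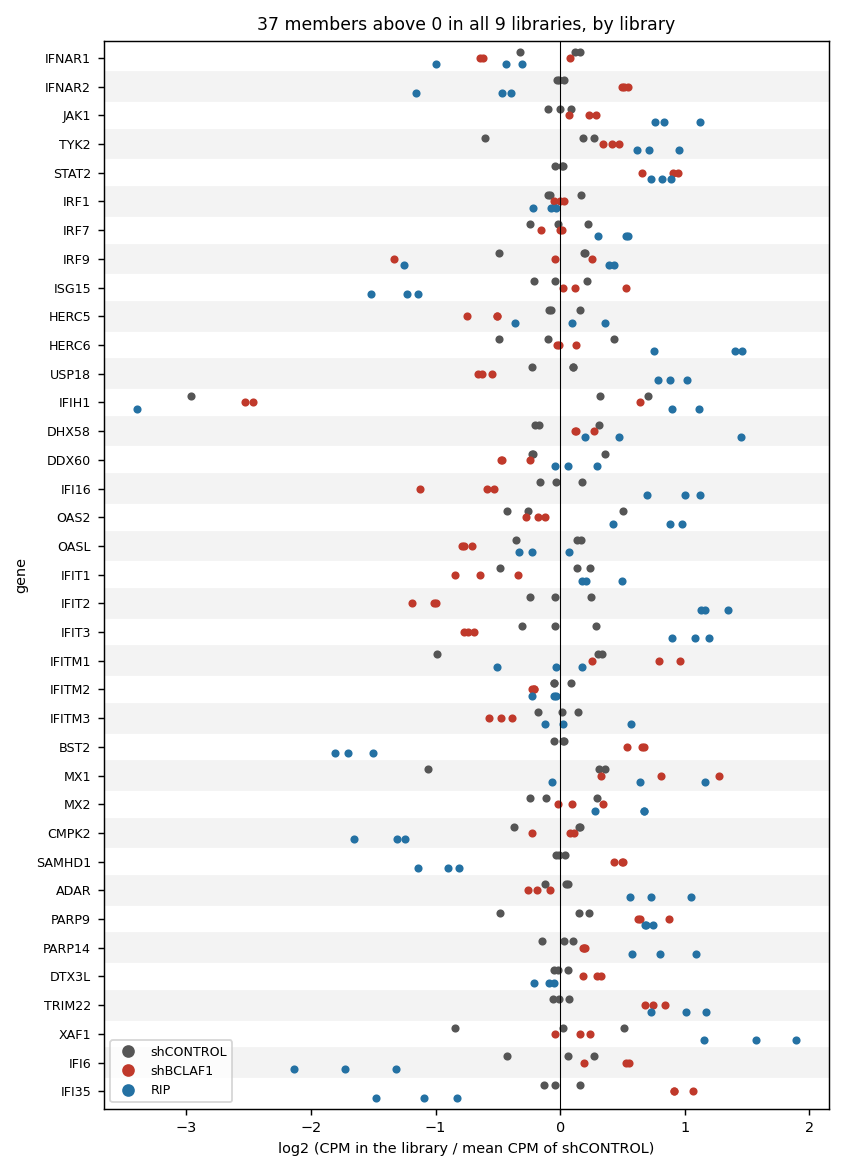
Level of each of the 37 genes in each of the 9 libraries, as the log2 ratio of its CPM to the mean CPM of shCONTROL (horizontal axis), with 1 row per gene and colour giving the group. BST2, SAMHD1, IFI35 and IFI6 separate RIP (left) from shBCLAF1 (right), IFIT2, IFIT3, IFI16 and USP18 separate them the other way, and IRF1 varies little in any group.

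The first comparison asks how the RNA of these genes differed once BCLAF1 was knocked down. After knock-down 8 of the 41 genes tested rose and 10 fell, most of them by less than 2-fold. STAT2, the receptor chain IFNAR2 and the restriction factors BST2, SAMHD1 and TRIM22 were among those that rose. The IFIT genes IFIT2 and IFIT3, the ISG15 ligase HERC5 and the feedback inhibitor USP18 were among those that fell. The 8 that rose are 19.5% of the genes tested, where 15.5% of all 16961 genes tested rose, and the 10 that fell are 24.4%, where 16.9% of all genes fell (edgeR quasi-likelihood test, Benjamini-Hochberg adjusted p under 0.05). The count of 10 that fell became 4 without shCONTROL replicate 1 or without shBCLAF1 replicate 2, and 6 without shCONTROL replicate 2. In these fits, in that order, 2180 of 17394, 2256 of 17294 and 2328 of 17355 genes fell, against 2859 of 16961. The 10 include RIGI and IFI44, which were listed at 0 in all shBCLAF1 libraries. They passed the filter on low counts only through shCONTROL, so their tests support nothing. Among the 37 genes above 0 in all 9 libraries, 8 rose and 8 fell (21.6% each). The shares of all genes above 0 in all 9 libraries that rose or fell were not computed. The 21.6% therefore has no matching reference, and no excess is read from it. The median log2 fold change of the 41 was -0.001, and that of all genes 0.017. In RNA from whole cultures, fewer cells of a kind and less RNA per cell cannot be told apart. OAS1, OAS3, IFIT5, IFI27 and IFI44L did not pass the filter on low counts and were not tested.

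Among the receptor chains and kinases, 1 of 4 rose. IFNAR2, a chain of the receptor, stood at 94.3, 97.0 and 93.0 CPM in shCONTROL and at 134, 138 and 135 CPM in shBCLAF1. Its groups lay apart, with a log2 fold change of 0.52 (SE 0.036, edgeR adjusted p = 3.20e-04). With all 9 libraries in 1 fit the adjusted p was 0.0888. The read-through transcript IFNAR2-IL10RB overlaps IFNAR2 and can share its reads. It had counts of 0, 0 and 0 in shCONTROL and of 317, 131 and 120 in shBCLAF1. Against the floor, those listed values were at least 58.6-fold higher over the group. Its counts were uneven in RIP, so this bound describes the table and is not a measure of the RNA. How reads were divided between IFNAR2 and IFNAR2-IL10RB is not given in the sources used here. IFNAR1, the other chain, stood at 44.8, 32.1 and 43.5 CPM in shCONTROL and at 26.2, 25.6 and 42.4 CPM in shBCLAF1. These groups overlapped, and the log2 fold change of -0.35 did not pass the test (edgeR adjusted p = 0.311). Neither JAK1 (log2 fold change 0.20) nor TYK2 (0.41) passed it.

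STAT2 was the 1 of 4 transcription factors that rose. It stood at 50.1, 52.2 and 52.0 CPM in shCONTROL and at 99.1, 81.1 and 96.2 CPM in shBCLAF1, a log2 fold change of 0.84 (SE 0.081, edgeR adjusted p = 8.39e-04). Every shBCLAF1 library was above every control. IRF9, its DNA-binding partner, stood at 13.4, 13.4 and 8.37 CPM in shCONTROL and at 11.4, 4.65 and 14.0 CPM in shBCLAF1, with no separation of the groups (log2 fold change -0.23, edgeR adjusted p = 0.725). IRF7, which amplifies interferon production, stood at 24.1, 28.3 and 20.5 CPM and at 21.9, 24.3 and 24.5 CPM (log2 fold change -0.04, edgeR adjusted p = 0.836). For IRF1 the log2 fold change was -0.001.

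In the ISG15 system, in which a ubiquitin-like protein is attached to others, 2 of 4 genes fell. ISG15 itself stood at 14.0, 16.7 and 12.4 CPM in shCONTROL and at 15.6, 14.6 and 20.7 CPM in shBCLAF1, overlapping groups (log2 fold change 0.24, edgeR adjusted p = 0.341). HERC5, the main ISG15 ligase, stood at 8.70, 7.40 and 7.31 CPM in shCONTROL and at 4.65, 5.50 and 5.48 CPM in shBCLAF1 (log2 fold change -0.58, SE 0.12, edgeR adjusted p = 0.0146), a call lost without shCONTROL replicate 1 (adjusted p = 0.053), with all 9 libraries in 1 fit (0.089) and with the replicate block (0.0559). USP18, which removes ISG15 and also dampens the receptor, fell by 0.60 on the log2 scale (SE 0.15, edgeR adjusted p = 0.0247), a call lost without any of 5 of the 6 libraries in turn, with DESeq2 and with the replicate block. HERC6 had a log2 fold change of 0.03 and did not pass.

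Of the 5 sensors of nucleic acid, 2 were called lower, IFI16 and RIGI, and the test of RIGI supports nothing. RIGI, which detects viral RNA, had 197, 295 and 164 counts in shCONTROL and a listed 0 in every shBCLAF1 library. Against the floor, those listed values were at least 78.6-fold lower over the group. The deposited counts of RIGI were uneven elsewhere, with 278, 0 and 0 counts in RIP, so this bound describes the table and is not a measure of the RNA. With all 9 libraries in 1 fit the call was lost (edgeR adjusted p = 0.111). IFI16, a DNA sensor, stood at 11.1, 12.8 and 10.2 CPM in shCONTROL and at 7.83, 7.56 and 5.18 CPM in shBCLAF1 (log2 fold change -0.72, SE 0.19, edgeR adjusted p = 0.0292). Its groups did not overlap, but the call was lost without any of 4 libraries in turn. IFIH1, another RNA sensor, had 49, 594 and 484 counts in shCONTROL and 641, 71 and 72 in shBCLAF1, a spread within groups that left no call. DHX58 and DDX60 did not pass.

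The IFIT genes lie together on chromosome 10 and encode proteins that bind RNA or act in its recognition. Of the 3 tested, 2 fell. IFIT2 stood at 32.6, 39.9 and 28.5 CPM in shCONTROL and at 16.7, 16.9 and 14.8 CPM in shBCLAF1 (log2 fold change -1.06, SE 0.14, edgeR adjusted p = 0.00233). IFIT3 stood at 23.6, 29.6 and 19.6 CPM and at 14.5, 14.2 and 15.1 CPM (log2 fold change -0.73, SE 0.15, edgeR adjusted p = 0.0135). For both, the highest shBCLAF1 library was below the lowest control. IFIT1 had a log2 fold change of -0.59 and did not pass (edgeR adjusted p = 0.104). IFIT5 had 59, 0 and 0 counts in shCONTROL and 61, 0 and 0 in shBCLAF1.

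OASL, a relative of the 2′-5′-oligoadenylate synthases that lacks their enzyme activity, was the 1 of 2 OAS genes tested that fell. It stood at 6.32, 6.46 and 4.50 CPM in shCONTROL and at 3.37, 3.33 and 3.52 CPM in shBCLAF1 (log2 fold change -0.75, SE 0.16, edgeR adjusted p = 0.0156). The 3 knock-down libraries lay close together and below all controls, but the call was lost without shCONTROL replicate 1, shCONTROL replicate 2 or shBCLAF1 replicate 2. OAS2, one of the enzymes, had a log2 fold change of -0.19 and did not pass. OAS1 had 0, 108 and 0 counts in shCONTROL and 0, 0 and 24 in shBCLAF1.

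Genes grouped under membrane and entry restriction moved in both directions, with 1 of 6 rising and 2 falling. BST2, or tetherin, holds budding virus at the cell surface. It stood at 34.4, 36.1 and 36.4 CPM in shCONTROL and at 56.8, 51.6 and 56.0 CPM in shBCLAF1, groups far apart relative to their spread (log2 fold change 0.63, SE 0.055, edgeR adjusted p = 6.35e-04). IFITM3 and IFITM2, which block fusion of virus with the cell, fell by 0.47 and 0.21 on the log2 scale (edgeR adjusted p = 0.0431 and 0.0455). Both calls were lost without any 1 of the 6 libraries, and these near-identical genes can share reads. Both were also lost with total counts, with all 9 libraries in 1 fit and with the replicate block. That of IFITM2 was lost without the filter too, and that of IFITM3 with DESeq2. IFITM1 (log2 fold change 0.70), MX1 (0.86) and MX2 (0.15) did not pass.

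Among enzymes of nucleotides and RNA, 1 of 5 rose. SAMHD1, which breaks down the building blocks of DNA, stood at 87.0, 89.7 and 85.5 CPM in shCONTROL and at 118, 124 and 123 CPM in shBCLAF1 (log2 fold change 0.48, SE 0.040, edgeR adjusted p = 5.36e-04). ADAR, the enzyme that turns adenosine into inosine in double-stranded RNA, stood at 401, 352 and 396 CPM and at 320, 336 and 362 CPM, and its overlapping groups did not pass (log2 fold change -0.17, edgeR adjusted p = 0.111). CMPK2 stood at 11.2, 11.2 and 7.79 CPM and at 10.9, 8.62 and 10.6 CPM, without a difference past the test. RSAD2 had 216, 0 and 160 counts in shCONTROL and 65, 0 and 64 in shBCLAF1, and ISG20 had 34, 47 and 44 and then 26, 0 and 25. Neither passed.

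Of the 8 other induced genes tested, 4 rose and 1, IFI44, was called lower by a test that supports nothing. TRIM22, a ubiquitin ligase that restricts viruses, stood at 33.5, 35.5 and 32.5 CPM in shCONTROL and at 60.4, 54.2 and 56.8 CPM in shBCLAF1 (log2 fold change 0.76, SE 0.061, edgeR adjusted p = 4.78e-04). IFI35 stood at 7.65, 9.36 and 8.12 CPM and at 15.8, 17.6 and 15.8 CPM, the highest fitted change among the genes that rose (log2 fold change 0.97, SE 0.11, edgeR adjusted p = 0.00134). PARP9 and DTX3L, which act as partners, lie on opposite strands and overlap by 447 bases. DTX3L rose by 0.27 (SE 0.057, edgeR adjusted p = 0.0132) and PARP9 by 0.72 (SE 0.20, edgeR adjusted p = 0.0350) on the log2 scale. Without shBCLAF1 replicate 2 the calls of DTX3L and IFIT3 were lost, with adjusted p = 0.052 and 0.0511, and that of PARP9 was lost without any of 4 libraries in turn. IFI44 had 39, 19 and 33 counts in shCONTROL and 0, 0 and 0 in shBCLAF1, at least 10.8-fold lower over the group in the listed values. PARP14, XAF1 and IFI6 did not pass, and IFI27 had 0, 0 and 0 counts in shCONTROL and 5, 10 and 0 in shBCLAF1.

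**Figure D3:**
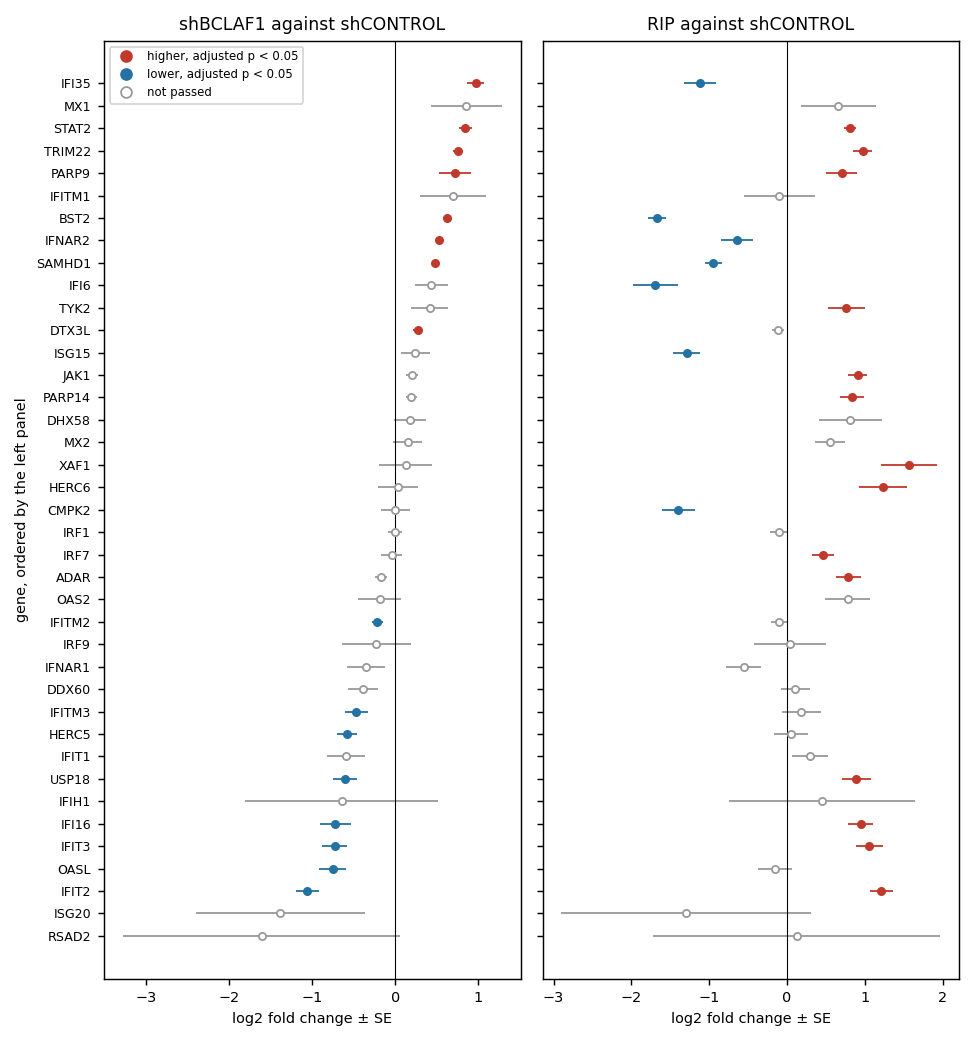
Log2 fold change with its standard error (horizontal axes) for the 39 genes with a fitted change after knock-down that was not against a group listed at 0, ordered by that change, in shBCLAF1 (left) and in RIP (right), each against the same shCONTROL libraries. Filled points passed the test; RIGI and IFI44, given as bounds in the text, are not drawn.

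The second comparison asks which of these RNAs were over- or under-represented in the RNA recovered with BCLAF1. In RIP 14 of the 43 genes tested were higher than in the RNA-seq of the same kind of cells and 7 were lower. The higher ones included JAK1, STAT2, IFIT2, IFIT3, IFI16, ADAR and XAF1. The lower ones were BST2, SAMHD1, ISG15, CMPK2, IFI6, IFI35 and IFNAR2. The 14 are 32.6% of the genes tested, where 24.6% of all 16727 genes tested were higher, and the 7 are 16.3%, where 24.7% of all genes were lower (edgeR quasi-likelihood test, Benjamini-Hochberg adjusted p under 0.05). When the log2 fold change also had to reach 1 in size, 4 genes were higher (HERC6, IFIT2, IFIT3 and XAF1), against 11.1% of all genes. By the same rule 5 were lower (ISG15, BST2, CMPK2, IFI6 and IFI35), against 13.6% of all genes. The median log2 fold change of the 43 was 0.45, and that of all genes -0.049. OAS3, IFI27 and IFI44L were not tested.

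The receptor chains and their kinases went different ways in RIP. JAK1 stood at 73.7, 78.4 and 68.9 CPM in shCONTROL and at 125, 160 and 131 CPM in RIP (log2 fold change 0.91, SE 0.12, edgeR adjusted p = 0.00187). TYK2 was higher by 0.76 (SE 0.24, edgeR adjusted p = 0.0402), with controls at 75.3, 130 and 138 CPM. IFNAR2 stood at 68.7, 72.0 and 42.4 CPM in RIP, below every control, and fell by 0.64 on the log2 scale (SE 0.21, edgeR adjusted p = 0.0442). The overlapping IFNAR2-IL10RB had 69, 0 and 953 counts in RIP, the highest in replicate 3, where IFNAR2 was lowest. Its part in that value was not tested. The calls of TYK2 and IFNAR2 were each lost without any of 4 libraries in turn. That of TYK2 was also lost with total counts, and that of IFNAR2 without the filter and with the replicate block. IFNAR1 stood at 32.5, 29.8 and 20.1 CPM, and its log2 fold change of -0.56 did not pass (edgeR adjusted p = 0.0879).

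STAT2 stood at 90.6, 95.4 and 85.3 CPM in RIP, again above every control (log2 fold change 0.81, SE 0.079, edgeR adjusted p = 6.44e-04). IRF7 stood at 30.0, 35.4 and 35.1 CPM (log2 fold change 0.46, SE 0.15, edgeR adjusted p = 0.0403). Its call was lost without any of 4 libraries in turn, with total counts and with the replicate block. IRF9, at 15.4, 15.8 and 4.93 CPM, had 1 RIP library far below the other two and did not pass (log2 fold change 0.04). IRF1 did not pass either.

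ISG15 stood at 5.02, 6.51 and 6.11 CPM in RIP, below its lowest control (log2 fold change -1.29, SE 0.17, edgeR adjusted p = 0.0018). In the same system, HERC6 was higher by 1.24 (SE 0.31, edgeR adjusted p = 0.0186) and USP18 by 0.89 (SE 0.19, edgeR adjusted p = 0.00975), while HERC5 had a log2 fold change of 0.06 and did not pass. Among the sensors only IFI16 passed, at 22.7, 24.7 and 18.4 CPM in RIP (log2 fold change 0.95, SE 0.16, edgeR adjusted p = 0.00398). DHX58 (0.81), DDX60 (0.11), IFIH1 (0.45) and RIGI (-0.81) did not, and the last 2 were uneven, IFIH1 having 598, 29 and 580 counts in RIP.

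IFIT2 stood at 75.3, 85.7 and 73.7 CPM in RIP, all 3 above every control (log2 fold change 1.21, SE 0.14, edgeR adjusted p = 0.00118). IFIT3 stood at 45.2, 55.5 and 51.5 CPM (log2 fold change 1.06, SE 0.17, edgeR adjusted p = 0.00351). Their neighbours IFIT1 (log2 fold change 0.30) and IFIT5 (61, 101 and 61 counts in RIP) did not pass. None of the 3 OAS genes tested passed: OASL had a log2 fold change of -0.15, OAS2 of 0.78, and OAS1 had 71, 66 and 0 counts in RIP.

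BST2 stood at 10.2, 12.6 and 11 CPM in RIP, less than every control and with the smallest adjusted p of the lower genes (log2 fold change -1.67, SE 0.12, edgeR adjusted p = 2.90e-04). The other genes grouped under membrane and entry restriction did not pass. Their log2 fold changes were -0.11 for IFITM2, 0.18 for IFITM3, -0.10 for IFITM1, 0.66 for MX1 and 0.55 for MX2. SAMHD1 stood at 46.9, 49.9 and 39.7 CPM (log2 fold change -0.95, SE 0.11, edgeR adjusted p = 0.00100). CMPK2, a mitochondrial nucleotide kinase, stood at 4.24, 4.07 and 3.19 CPM (log2 fold change -1.40, SE 0.21, edgeR adjusted p = 0.00285). ADAR stood at 634, 791 and 566 CPM, above its controls in every library (log2 fold change 0.79, SE 0.16, edgeR adjusted p = 0.0075). RSAD2, which overlaps CMPK2 by 751 bases, had 180, 0 and 133 counts and ISG20 0, 0 and 42, and neither passed.

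Among the other induced genes 4 of 8 tested were higher and 2 lower. TRIM22 stood at 68.2, 56.0 and 76.1 CPM in RIP (log2 fold change 0.97, SE 0.12, edgeR adjusted p = 0.00145). PARP14, an ADP-ribosyltransferase, was higher by 0.83 (SE 0.16, edgeR adjusted p = 0.00599) and PARP9 by 0.70 (SE 0.20, edgeR adjusted p = 0.0269), while DTX3L (-0.12) did not pass. XAF1, which promotes cell death, stood at 164, 123 and 205 CPM in RIP beside 56.0, 78.7 and 30.7 CPM in shCONTROL (log2 fold change 1.57, SE 0.36, edgeR adjusted p = 0.0136). IFI6, a membrane protein of the endoplasmic reticulum and mitochondria, stood at 3.45, 4.60 and 2.60 CPM beside 12, 13.8 and 8.54 CPM (log2 fold change -1.69, SE 0.29, edgeR adjusted p = 0.00413). IFI35 stood at 4.71, 3.01 and 3.92 CPM (log2 fold change -1.12, SE 0.20, edgeR adjusted p = 0.00551). IFI44 had 62, 41 and 31 counts in RIP and did not pass. The calls of HERC6 and PARP9 were each lost without any of 4 libraries in turn, and that of PARP9 also with total counts. The call of XAF1 was lost without shCONTROL replicate 1 (adjusted p = 0.05) and with the replicate block.

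The genes lower in RIP had a smaller median length than those higher in it. The median length from start to end of the gene was 7.67 kb for the 7 lower genes, 28.6 kb for the 14 higher ones and 21.2 kb for the 22 that did not pass. Spearman's rho between length and RIP log2 fold change was 0.201 over the 43 genes and 0.202 over the 13873 genes of all those tested that had a length. The motif occurred in 2 of the 10 higher genes with a promoter, in 3 of the 6 lower ones and in 11 of the 17 that did not pass. After knock-down it occurred in 2 of the 6 with a promoter that rose, in 4 of the 6 that fell and in 9 of the 19 that did not pass. The 6 that fell include RIGI and IFI44, whose tests support nothing.

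**Figure D4:**
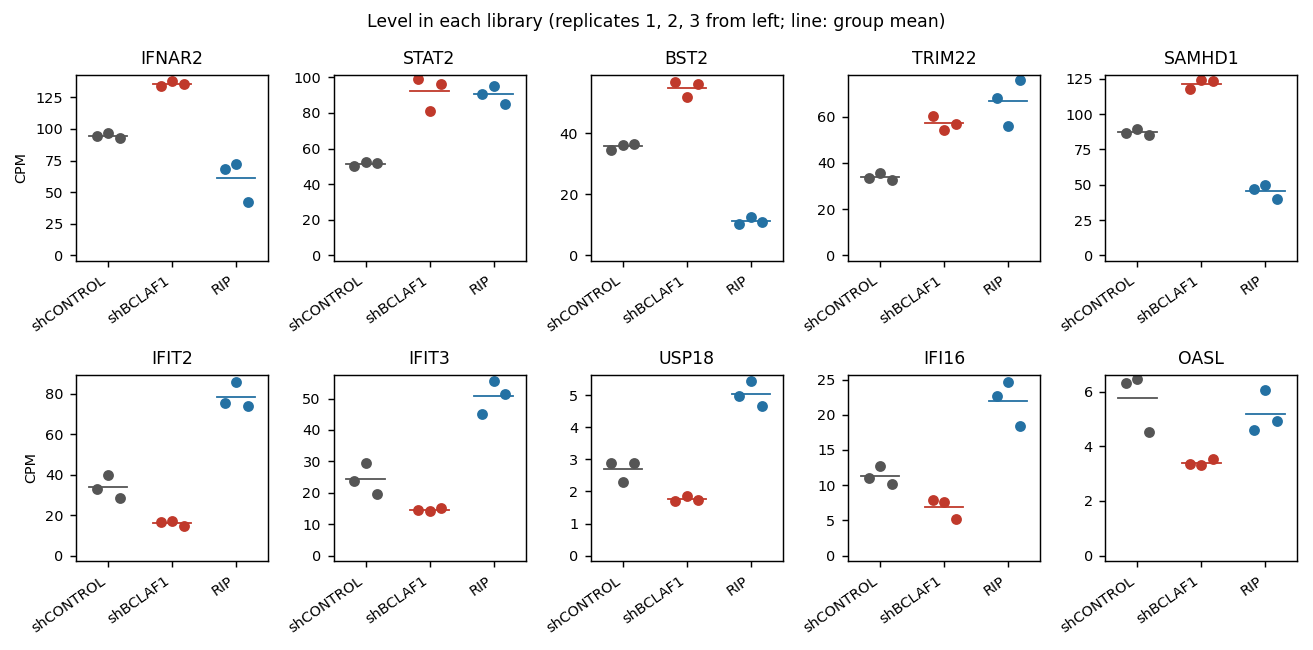
Level in CPM (vertical axes from 0) of 10 genes in each library, with the group mean as a line. The upper row holds genes that rose after knock-down and the lower row genes that fell; IFNAR2, BST2 and SAMHD1 were lower in RIP, whereas STAT2, TRIM22, IFIT2, IFIT3, USP18 and IFI16 were higher.

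The fold changes of both comparisons use the same shCONTROL libraries and are set side by side here only as values. BST2 had a log2 fold change of 0.63 after knock-down and -1.67 in RIP, SAMHD1 of 0.48 and -0.95, IFI35 of 0.97 and -1.12, and IFNAR2 of 0.52 and -0.64. IFIT2 had -1.06 and 1.21, IFIT3 -0.73 and 1.06, IFI16 -0.72 and 0.95, and USP18 -0.60 and 0.89. For STAT2 the values were 0.84 and 0.81, for TRIM22 0.76 and 0.97, and for PARP9 0.72 and 0.70.

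Some genes had counts near 0 in one library beside many in another library of the same group. Within a group, the highest count was at least 20 and at least 5 times the lowest for 6 of the 46 genes: RIGI, IFIH1, OAS1, IFIT5, RSAD2 and ISG20. This held for 1854 of all genes tested (10.7%). For these genes a 0 is what the table lists, and it is no measure of how many reads fell there, so the bound given for RIGI holds for the listed values alone.

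**Figure D5:**
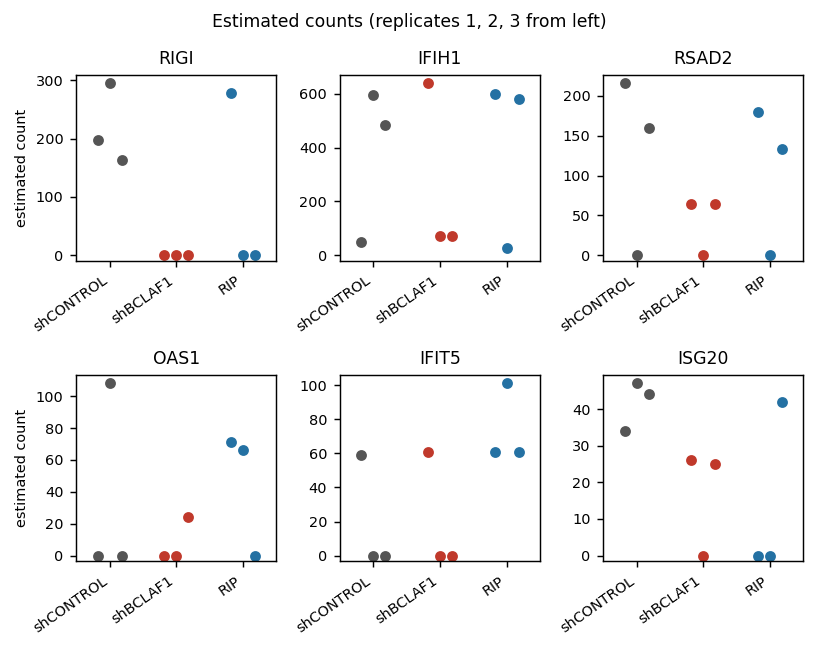
Estimated counts (vertical axes) in each library for the 6 genes with uneven counts. RIGI was listed at 0 in all 3 shBCLAF1 libraries and in 2 RIP libraries, and RSAD2 at 0 in replicate 2 of every group.

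Other genes of the pathway, taken from a list of 68 interferons, receptors, sensors, factors, inhibitors and induced genes, were read from the same fits. The list was drawn up with earlier results of these data known, so its shares describe the list and support nothing. Of the 52 tested, 21 rose (40.4%, against 15.5% of all genes tested) and 9 fell (17.3%, against 16.9%) after knock-down, with a median log2 fold change of 0.18. Those with the smallest adjusted p among the rising ones were the antibody receptor TRIM21 (0.92, edgeR adjusted p = 1.41e-04), the kinase JAK2 (0.75, 3.85e-04) and the feedback inhibitor SOCS3 (1.19, 4.71e-04). Among the falling ones they were the DNA receptor TLR9 (-0.88, 3.94e-04), the tryptophanyl-tRNA synthetase WARS1 (-1.18, 6.07e-04) and LY6E (-0.72, 8.42e-04). In RIP 11 of the 52 tested were higher (21.2%, against 24.6% of all genes) and 12 lower (23.1%, against 24.7%), with a median of 0.12. The 11 include the interferon gene IFNB1, which passed the filter on low counts only through RIP, so its test supports nothing. The smallest adjusted p among the higher ones belonged to the nuclear body protein SP100 (1.07, edgeR adjusted p = 5.42e-04), ZNFX1 (1.59, 5.66e-04) and SP110 (1.01, 9.79e-04). Among the lower ones they belonged to the adaptor STING1 (-0.88, 4.34e-04) and the interferon gamma receptor chains IFNGR2 (-0.70, 0.00293) and IFNGR1 (-0.91, 0.00358).

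Of the 6 interferon genes on that list, 5 (IFNA1, IFNE, IFNK, IFNG and IFNL1) were listed at 0 in all 9 libraries. IFNB1, named after its values were seen, was at 0 in all 6 RNA-seq libraries and had 20, 16 and 18 counts in RIP, at least 7.68-fold higher than the floor of the controls. It passed the filter on low counts only through RIP, so no test is given.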

How the data were processed

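The authors deposited 1 table of estimated counts (expected counts) per gene and library, without normalization. Its values were whole and were not rounded. The submitters' processing notes name hg38, STAR 2.7.11b and StringTie 2.2.3, with no settings, so the use of strand in counting is not given in the sources used here. Libraries were made from stranded total RNA after removal of ribosomal RNA and sequenced in paired ends, per the labels' protocols. An entry that names no gene held 2.18% to 3.75% of the counts in 8 libraries and was left out. Floors account for counting error alone, because PCR duplicates could not be recognised.

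Knock-down (shBCLAF1 against shCONTROL) and RIP (RIP against shCONTROL) were each fitted on all genes of their own 6 libraries with edgeR 4.0.16 in R 4.3.3: default filter on low counts, TMM scaling, prior count 0.125, a quasi-likelihood test with a single term for group, and Benjamini-Hochberg adjustment over all genes tested, threshold 0.05. The script was checked on simulated counts. The standard error is the log2 fold change divided by the root of F. A group with all 3 libraries at or under 3 counts was given a bound from its mean floor in CPM. The alternatives were relative-log scaling, total counts, no filter, DESeq2 1.42.0, all 9 libraries in 1 fit, the replicate number as a block, a minimum log2 fold change of 1, genes above 0 in all libraries, and each library left out.

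The genes and lists were chosen with earlier results of these data known. Every gene that passed was named; values per library were given for the 6 with the smallest adjusted p in each direction and for IFNAR1, IFNAR2, STAT2, IRF9, IRF7, ISG15, SAMHD1 and ADAR, for other genes where counts were uneven, and for XAF1 and the controls of TYK2, chosen after their values were seen. Of the other pathway genes the 3 with the smallest adjusted p in each direction were named.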

Additional observations from a re-analysis of the deposited data

How the results depend on the processing

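Of the calls in the report, 5 of the 8 genes that rose after knock-down (STAT2, BST2, SAMHD1, TRIM22 and IFI35), 2 of the 10 that fell (IFIT2, and IFI44 with its listed 0s), 9 of the 14 higher in RIP and 6 of the 7 lower in RIP held under all 12 alternatives fitted. After knock-down, leaving out each library in turn gave 6 to 9 genes that rose and 4 to 8 that fell. The 4 came without shCONTROL replicate 1 and without shBCLAF1 replicate 2, and 6 fell without shCONTROL replicate 2. Of all genes, 1975 to 2642 rose and 2171 to 2730 fell in these fits. In RIP leaving out each library gave 10 to 15 higher and 6 to 8 lower. There 3116 to 4222 of all genes were higher and 3218 to 4568 lower. All 9 libraries in 1 fit left 6 genes falling, and the IFNAR2 rise was lost (adjusted p = 0.0888). In that fit 1129 of all genes rose and 1318 fell, against 2625 and 2859. A minimum log2 fold change of 1 left 0 rising and 3 falling after knock-down. By that rule 307 of all 16961 genes rose and 389 fell. The 3 include RIGI and IFI44, and 1 fell among the genes above 0 in all 9 libraries. In RIP the same minimum left 4 higher. Scaling by total counts moved the median of all genes in RIP from -0.049 to -0.165 and gave 3403 higher and 4529 lower genes, against 4107 and 4124. Among the genes whose change is given, the sign turned only for changes that had missed the test. Over the 12 alternatives after knock-down, the log2 fold change ranged from -0.042 to 0.098 for IRF1 and -0.143 to 0.089 for IRF7. It ranged from -0.543 to 0.115 for IRF9, -0.152 to 0.32 for HERC6 and -0.349 to 0.16 for OAS2. For CMPK2 it ranged from -0.148 to 0.097 and for XAF1 from -0.155 to 0.478. In RIP it ranged from -0.22 to 0.413 for IRF9, -0.13 to 0.232 for HERC5, -0.071 to 1.004 for IFIH1, -0.419 to 0.092 for IFITM1, -0.061 to 0.321 for IFITM3 and -0.61 to 0.785 for RSAD2. Total counts gave 0.05 for IRF1 and 0.01 for IRF7 after knock-down, and -0.076 for IRF9, -0.063 for HERC5 and -0.005 for DDX60 in RIP. The replicate block gave 0.004 for IRF1 after knock-down and -0.107 for IRF9 in RIP. CMPK2 after knock-down was -0.005 with relative-log scaling, -0.012 without a filter, and -0.004 with DESeq2 and with all 9 libraries in 1 fit. The cause was not tested. With the replicate number as a block, 9 genes rose and 7 fell after knock-down, and 14 were higher and 6 lower in RIP. Of all genes, 2271 rose and 2538 fell after knock-down, and 3244 were higher and 3262 lower in RIP. The deviations of libraries with the same number correlated at 0.0171 to 0.0738 for knock-down, where each library correlated best with its own number. For RIP they correlated at -0.02 to 0.0197. Whether the numbers pair the samples is not settled by these values, and the main fits did not use them. With the replicate block, the knock-down calls of HERC5, USP18, IFITM2 and IFITM3 were lost. OASL, IFI16, USP18, HERC5, PARP9, IFITM2 and IFITM3 were within reach of the threshold, with adjusted p from 0.05 to 0.201 where their calls were lost.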
